A study of Homo sapiens with 18 samples.

Results

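BNIP3 and 8 further genes of mitophagy, macroautophagy and their stress control were followed on microarrays of MDA-MB-231 cells, an established human breast cancer line. The genes were BNIP3, BNIP3L, FUNDC1, DDIT4, SQSTM1, GABARAPL1, MAP1LC3B, ULK1 and BECN1, and every probe set that the platform's gene table gave to 1 of these symbols alone was taken. They are 9 of 19775 genes named on the arrays and had 19 of the 54613 probe sets, and 1 further probe set that GABARAPL1 shares with a second gene was left out. The cells were exposed for 16 hours, in serum-free medium, to hypoxia or normoxia with 10 µM epirubicin, with 50 µM paclitaxel or with no drug, giving the conditions H epi, N epi, H tax, N tax, H and N. Hypoxia was 1% oxygen. Each condition had 2 arrays with settled labels. All cells came from 1 line, and the study describes its replicates as independent experiments.

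Mitophagy removes mitochondria by enclosing them in a double membrane, the autophagosome, that then fuses with the lysosome. BNIP3 and BNIP3L (also called NIX) are proteins of the outer mitochondrial membrane that bind the ATG8 proteins of the growing autophagosome and so mark the organelle for removal, and both are classical targets of the hypoxia-inducible factor HIF-1. FUNDC1 is another receptor of this kind. SQSTM1 (p62) carries ubiquitin-marked cargo to the membrane, MAP1LC3B and GABARAPL1 belong to the ATG8 family, ULK1 is the kinase that starts autophagosome formation, and BECN1 (beclin 1) is a subunit of the lipid kinase complex that acts next. DDIT4 (REDD1) restrains mTORC1, the kinase that holds autophagy back.

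The stretches before the gene starts are shown because HIF-1 binds a short core, ACGTG or GCGTG, and hypoxia was the first factor of the design. The sequences are from RefSeq on build GRCh38.p14, each 250 bases upstream of an annotated start, 5′ to 3′ on the gene's strand. Capitals mark matches to ACGTG or GCGTG on either strand, the reverse strand reading as CACGT or CACGC.
BNIP3, chr10:131981924-131982173, minus strand: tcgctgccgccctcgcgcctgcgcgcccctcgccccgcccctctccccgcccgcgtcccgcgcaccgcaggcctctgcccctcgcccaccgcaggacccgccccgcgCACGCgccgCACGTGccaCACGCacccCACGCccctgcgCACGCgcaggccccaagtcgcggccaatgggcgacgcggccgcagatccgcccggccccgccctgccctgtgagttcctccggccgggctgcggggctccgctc
DDIT4, chr10:72273674-72273923, plus strand: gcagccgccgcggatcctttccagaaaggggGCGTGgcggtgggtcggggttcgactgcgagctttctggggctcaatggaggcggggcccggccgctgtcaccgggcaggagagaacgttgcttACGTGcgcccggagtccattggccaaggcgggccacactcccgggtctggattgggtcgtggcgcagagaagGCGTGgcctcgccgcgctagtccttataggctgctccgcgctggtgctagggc
MAP1LC3B, chr16:87392086-87392335, plus strand: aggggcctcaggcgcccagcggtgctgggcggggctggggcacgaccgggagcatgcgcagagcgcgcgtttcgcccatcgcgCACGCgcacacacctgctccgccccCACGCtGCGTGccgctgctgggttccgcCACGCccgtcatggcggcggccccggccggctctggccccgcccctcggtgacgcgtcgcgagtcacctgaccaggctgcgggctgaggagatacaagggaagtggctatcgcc
The BNIP3 window held 6 matches, which covered 26 bases and of which a forward and a reverse match overlapped in CACGTG. The DDIT4 window held 3 and the MAP1LC3B window 4. The ULK1 window on chromosome 12 held 1 match. No match lay in the windows of FUNDC1 (chromosome X), BECN1 (chromosome 17), GABARAPL1 (chromosome 12) or the 3 annotated starts of SQSTM1 (chromosome 5). Of 35116 windows of this length, 43.2% held at least 1 match, 7.76% at least 3, 3.22% at least 4 and 0.646% at least 6. A match describes the letters of the window and no binding was measured.

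**Figure D1:**
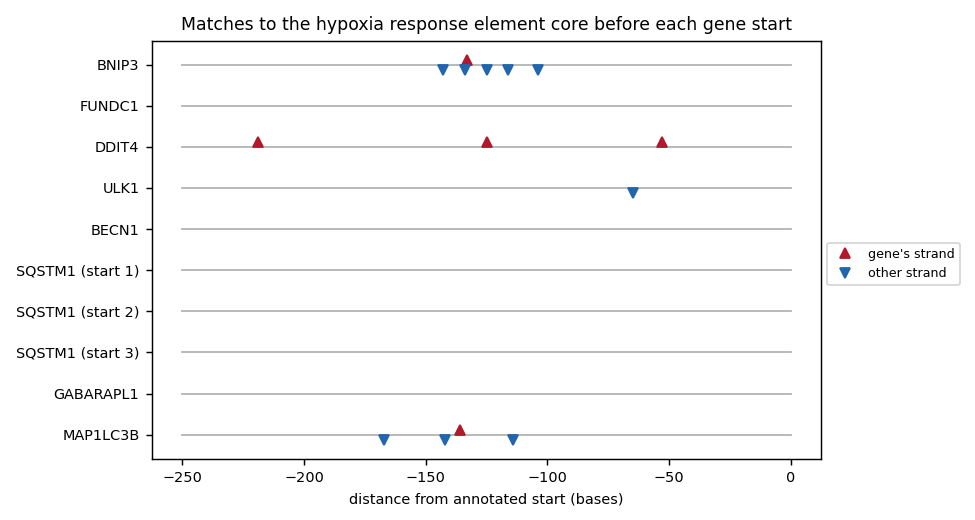
Positions of the core matches, as distance in bases from the annotated start, in the 10 windows of the 8 genes with an entry; triangles pointing up are on the gene's strand and triangles pointing down on the other. The 6 matches of BNIP3 begin between 143 and 104 bases before the start.

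The values were log2 GC-RMA signals, a background-corrected summary of the probes of each probe set. The presence threshold was a linear signal of 8.84 (3.14 on the log2 scale), and probe sets above it on both arrays in 1 or more conditions were tested. These were 24151 of the 54613, among them 17 of the 19. SQSTM1 242568_s_at and BECN1 1561652_at were not tested, with highest signals of 2.72 and 2.78 on the log2 scale on any of the 12 arrays compared. A difference was called when the adjusted p was under 0.05 in 1 limma fit of the 12 arrays. Between 41.4% and 42.6% of probe sets were present on an array. The ACTB control probe sets differed between their 3′ and 5′ ends by −0.31 to −0.21 on the epirubicin arrays, by 0.07 to 0.32 on the H tax, N tax and H arrays and by −0.04 to −0.02 on the N arrays, and the part of this in the results was not tested. The N epi replicates stood apart most, with a root mean square difference of 0.679 over the tested probe sets, against 0.243 to 0.459 for the other pairs. All 8 markers of MDA-MB-231 (VIM, CD44, EGFR, CAV1, MSN, ANXA1, LGALS1 and S100A4) were present on 12 of 12 arrays. Of the 8 luminal markers, PGR, CDH1 and FOXA1 were present on 0 arrays, ESR1 on 1 (up to 3.27), and GATA3, KRT18, ERBB3 and EPCAM on 12. Of 8 measured markers of other cell types, 7 were present on 0 arrays and PECAM1 on 12 (3.78 to 7.07).

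**Figure D2:**
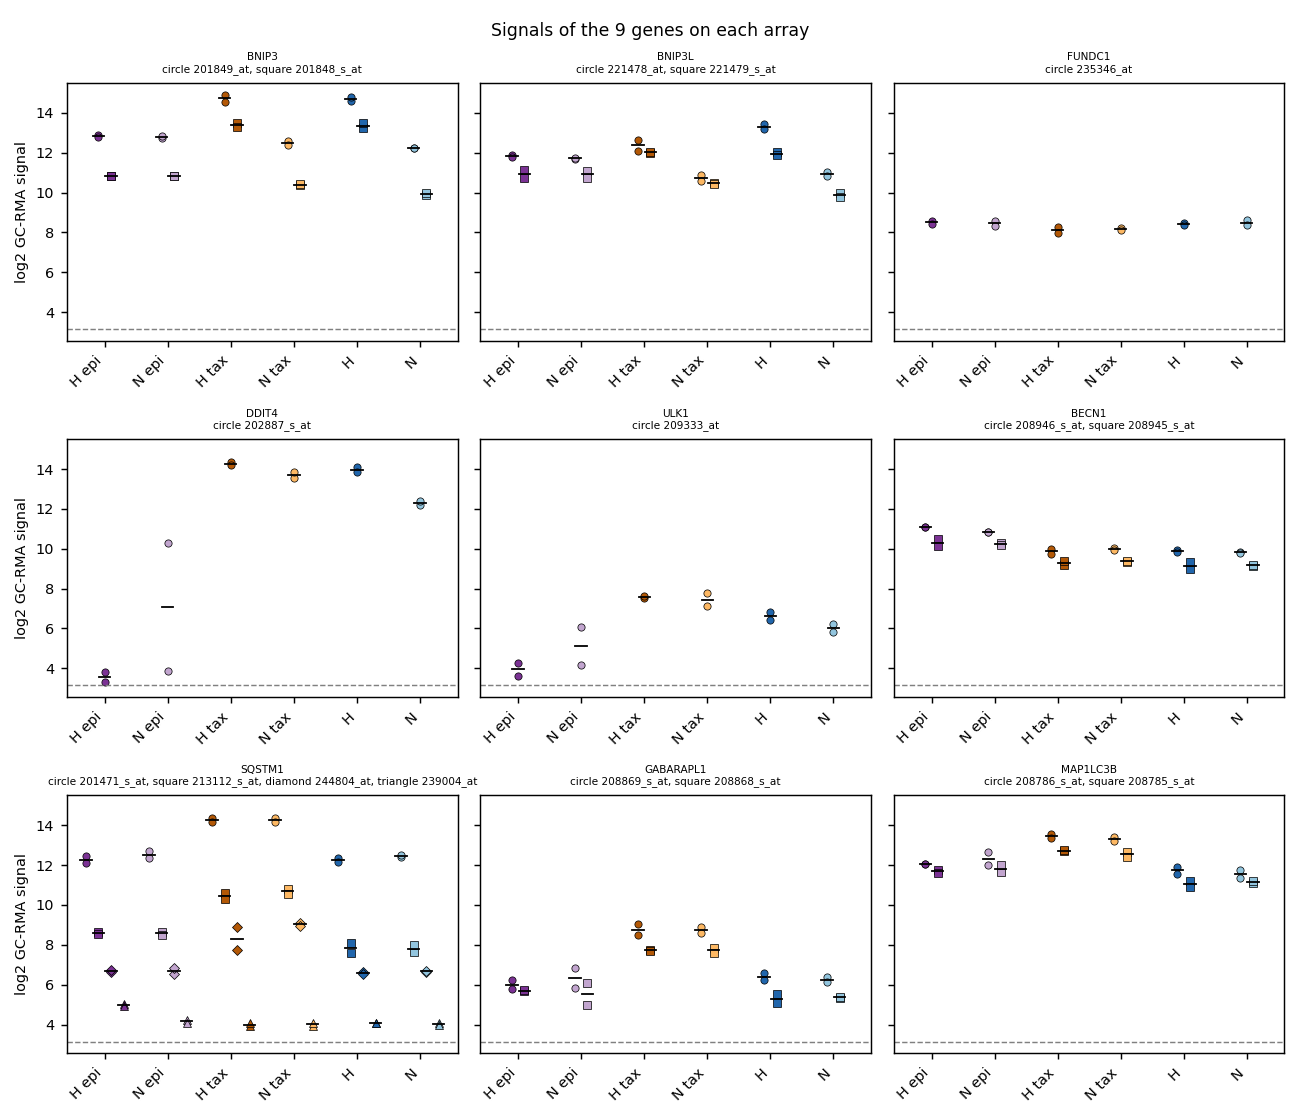
Log2 GC-RMA signal of the 17 tested probe sets on each array, by gene and condition; symbols are single arrays (2 per condition), short lines are condition means and the dashed line is the presence threshold of 3.14. BNIP3 and BNIP3L were high in H tax and H, SQSTM1, GABARAPL1 and MAP1LC3B in H tax and N tax, and DDIT4 spans 3.30 to 14.34.

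Hypoxia raised the mitophagy receptors BNIP3 and BNIP3L in control cells, on 4 of their 4 probe sets. BNIP3 201848_s_at measured 13.24 and 13.47 on the H arrays, against 9.86 and 9.99 on the N arrays. The signal was 10.8-fold higher in H (log2 difference 3.43, SE 0.12, limma adjusted p = 6.07e-06). The second probe set, BNIP3 201849_at, lay higher throughout, at 14.58 and 14.81 on the H arrays, against 12.26 and 12.23 on the N arrays, with a smaller difference of 2.45 (SE 0.15). BNIP3L 221478_at measured 13.43 and 13.18 on the H arrays, against 11.06 and 10.85 on the N arrays, which was 5.10-fold (log2 difference 2.35, SE 0.20, adjusted p = 0.000506). BNIP3L 221479_s_at measured 12.04 and 11.87 on the H arrays, against 9.99 and 9.76 on the N arrays, a difference of 2.08 (SE 0.17, adjusted p = 0.000459). In each case both H arrays lay above both N arrays by more than the gap between replicates. All 4 had already passed the test, and separation of this kind was not counted over all probe sets. RefSeq lists 46 pseudogenes of BNIP3, and whether 201848_s_at or 201849_at also reads them was not tested.

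These 4 were the only members called in H against N: 4 of 17 were higher and 0 lower, beside 4.41% higher and 5.11% lower among all 24151 probe sets. The median difference over the 17 was 0.06, against −0.02 over all probe sets. FUNDC1, the other receptor, did not pass the test in any of the 10 comparisons. Its probe set 235346_at stayed between 7.97 and 8.61 over the 12 arrays, and H differed from N by −0.05 (95% interval −0.39 to 0.29). All 8 probe sets of SQSTM1, GABARAPL1 and MAP1LC3B and both of BECN1 had hypoxia intervals that included 0 in control cells.

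The hypoxia effect on BNIP3 and BNIP3L was also called with paclitaxel present. BNIP3 201848_s_at measured 13.51 and 13.31 on the H tax arrays, against 10.36 and 10.42 on the N tax arrays (log2 difference 3.02, SE 0.12, adjusted p = 3.44e-05). BNIP3L 221478_at was less even, at 12.66 and 12.10 on the H tax arrays, against 10.89 and 10.58 on the N tax arrays (1.65, SE 0.20, adjusted p = 0.00628). The arrays of the 2 conditions did not overlap on any of the 4 probe sets, all of which were called. The share of all probe sets without overlap was not counted. BNIP3L 221479_s_at differed by 1.56 (SE 0.17, adjusted p = 0.0042) and BNIP3 201849_at by 2.26 (SE 0.15, adjusted p = 0.000291). Members called were 4 of 17 higher and 0 lower, beside 1.06% higher and 0.273% lower among all probe sets. BNIP3 is among the genes that the study picked for its H tax against N tax difference on these samples, so its rise there is not independent evidence. Fitting these 4 arrays alone gave 0 member calls and 3 calls over all probe sets, and without N tax replicate 2 BNIP3L 221478_at had an adjusted p of 0.0555.

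With epirubicin present, none of the 4 receptor probe sets was called between hypoxia and normoxia. BNIP3 201848_s_at measured 10.82 and 10.82 on the H epi arrays, against 10.86 and 10.83 on the N epi arrays. BNIP3 201849_at measured 12.89 and 12.80 on the H epi arrays, against 12.73 and 12.85 on the N epi arrays. The differences over the 4 ran from −0.02 to 0.12, and the widest of the 95% intervals, that of BNIP3L 221478_at, was −0.34 to 0.58. The intervals of all 4 lay below the smallest hypoxia difference seen in control cells. The only member called in H epi against N epi was SQSTM1 239004_at, 1 of 17, beside 0.381% higher and 1.13% lower among all probe sets. It measured 5.01 and 4.93 on the H epi arrays, against 4.22 and 4.10 on the N epi arrays (0.81, SE 0.11, adjusted p = 0.0201), close to the presence threshold. This call was lost on leaving out any N or H array (adjusted p = 0.0507 to 0.0549) and in the fit of the 4 arrays alone.

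**Figure D3:**
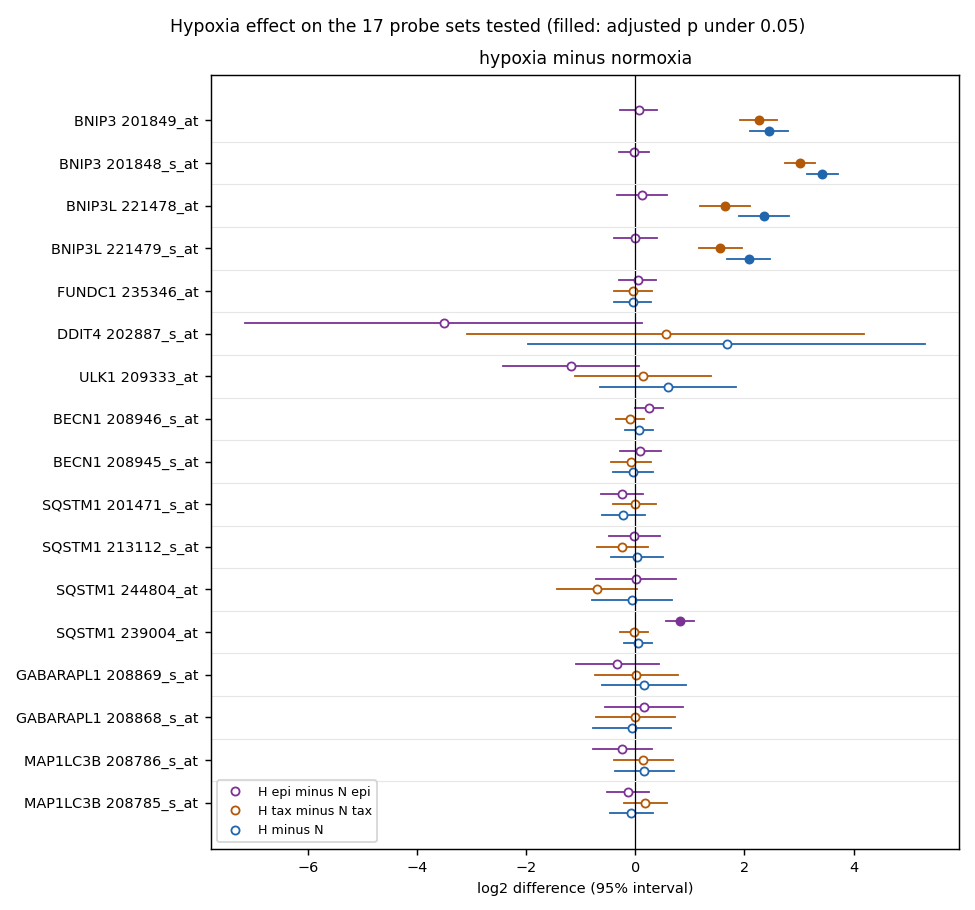
Log2 difference between hypoxia and normoxia for each of the 17 tested probe sets, with epirubicin (purple), with paclitaxel (orange) and in control cells (blue); bars are 95% intervals and filled points have an adjusted p under 0.05. The 4 probe sets of BNIP3 and BNIP3L lie near 0 with epirubicin, at 1.56 to 3.02 with paclitaxel and at 2.08 to 3.43 in control cells.

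The difference between hypoxia effects was tested directly. For epirubicin against control it was −3.45 on BNIP3 201848_s_at (SE 0.17, adjusted p = 8.37e-05), −2.39 on BNIP3 201849_at (adjusted p = 0.00148), −2.23 on BNIP3L 221478_at (adjusted p = 0.00782) and −2.08 on BNIP3L 221479_s_at (adjusted p = 0.005). Members called were 1 of 17 higher, SQSTM1 239004_at at 0.77 (adjusted p = 0.0388), and 4 lower, beside 1.73% higher and 2.23% lower among all probe sets. The SQSTM1 call was lost on leaving out any N, H or N tax array or N epi replicate 2 (adjusted p = 0.057 to 0.132). For paclitaxel against epirubicin, 3 of 17 were higher and 0 lower, beside 0.654% higher and 0.166% lower. They were BNIP3 201848_s_at (3.05), BNIP3 201849_at (2.20) and BNIP3L 221479_s_at (1.56, adjusted p = 0.0331), while BNIP3L 221478_at gave 1.53 with an adjusted p of 0.0602. This contrast contains the H tax against N tax difference for which the study picked BNIP3. The BNIP3 calls in it are therefore not independent evidence. The call of BNIP3L 221479_s_at was lost on leaving out any one of 9 arrays (adjusted p up to 0.118), and for BNIP3L 221478_at 3 of the 12 arrays, when left out, brought the adjusted p under 0.05 (0.0277 to 0.0473). For paclitaxel against control, 0 of 17 were called in either direction, beside 0.0331% higher and 0.087% lower, and the 4 receptor probe sets had differences of −0.70 to −0.19. Before adjustment, BNIP3 201848_s_at (−0.41) and BNIP3L 221478_at (−0.70) passed a limma threshold of 0.05 there, 2 of the 17. The share of all probe sets past that unadjusted threshold was not counted. The 0.0331% and 0.087% are for adjusted p, so whether 2 of 17 exceeds the background cannot be said.

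Epirubicin shifted the receptors in opposite directions at the 2 oxygen levels. In normoxia all 4 probe sets were higher with the drug than without it. BNIP3 201848_s_at measured 10.86 and 10.83 on the N epi arrays, against 9.86 and 9.99 on the N arrays (0.92, SE 0.12, adjusted p = 0.000546). BNIP3L 221479_s_at measured 11.09 and 10.74 on the N epi arrays, against 9.99 and 9.76 on the N arrays (1.04, SE 0.17, adjusted p = 0.00154). BNIP3 201849_at and BNIP3L 221478_at rose by less, 0.54 (adjusted p = 0.0164) and 0.76 (adjusted p = 0.0131). Without N replicate 1, N replicate 2 or N epi replicate 2, BNIP3 201849_at had an adjusted p of 0.0621, 0.0732 or 0.0645, and without N replicate 2, BNIP3L 221478_at had one of 0.081.

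In hypoxia all 4 were lower with epirubicin. The differences between H epi and H were −2.54 (SE 0.12, adjusted p = 3.6e-06) for BNIP3 201848_s_at, −1.85 (adjusted p = 2.92e-05) for BNIP3 201849_at, −1.48 (adjusted p = 0.000306) for BNIP3L 221478_at and −1.04 (adjusted p = 0.000889) for BNIP3L 221479_s_at. The H epi arrays lay below the H arrays on each, and yet above the N arrays on each. How many of all probe sets separate in this way was not counted. The epirubicin and control arrays differed widely over the whole array, with 30.9% of probe sets higher and 32.5% lower in H epi than in H, and 24.7% higher and 27.8% lower in N epi than in N. Centring each array on its median moved the median of all probe sets by 0.54 in H epi against H and by 0.41 in N epi against N, and the 4 probe sets kept their calls and directions in both. Their values moved with it: in H epi against H, BNIP3L 221479_s_at gave −0.50 (adjusted p = 0.041) and BNIP3L 221478_at −0.94, and in N epi against N, BNIP3 201849_at gave 0.95 and BNIP3L 221478_at 1.16.

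Paclitaxel differences on BNIP3 and BNIP3L within 1 oxygen level were under 1 log2 unit. BNIP3 201848_s_at measured 10.36 and 10.42 on the N tax arrays, against 9.86 and 9.99 on the N arrays (0.47, adjusted p = 0.0263), and BNIP3L 221479_s_at differed by 0.58 (adjusted p = 0.0419). Both calls were lost without either N or either N tax array (adjusted p = 0.0658 to 0.212), and the second also without either H or either H tax array (0.058 to 0.0593). In hypoxia BNIP3 201848_s_at differed by 0.06 and BNIP3 201849_at by 0.04, with 95% intervals of −0.22 to 0.33 and −0.31 to 0.39. The probe sets of BNIP3L disagreed. BNIP3L 221478_at was lower in H tax than in H (−0.92, SE 0.20, adjusted p = 0.00938), a call lost without H replicate 1 (adjusted p = 0.0651), while BNIP3L 221479_s_at differed by 0.06.

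The cargo receptor SQSTM1 and both ATG8 genes among the members rose with paclitaxel. None of the probe sets of these genes was called between H tax and N tax or between H and N. SQSTM1 213112_s_at measured 10.82 and 10.53 on the N tax arrays, against 7.63 and 7.97 on the N arrays. That was 7.36-fold (log2 difference 2.88, SE 0.21, adjusted p = 0.000159), the largest paclitaxel difference among the 17. SQSTM1 201471_s_at, the brightest probe set of the gene, measured 14.38 and 14.19 on the N tax arrays, against 12.43 and 12.51 on the N arrays (1.82, SE 0.17, adjusted p = 0.000423). SQSTM1 244804_at rose by 2.36 (SE 0.32, adjusted p = 0.00169), with 9.12 and 8.93 on the N tax arrays, against 6.64 and 6.69 on the N arrays. The fourth tested probe set, 239004_at, did not move with them: it measured 3.94 and 4.10 on the N tax arrays, against 4.10 and 3.99 on the N arrays (−0.02, adjusted p = 0.938).

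GABARAPL1 and MAP1LC3B belong to the ATG8 proteins, which are fixed to the autophagosome membrane and which cargo receptors bind. Of 5 ATG8 genes tested, these 2 were higher and 0 lower in N tax than in N, beside 8.94% higher and 15% lower among all genes. In H tax against H, 2 were higher and 1 lower, beside 13.3% and 18.2%. GABARAPL1 208869_s_at measured 8.87 and 8.62 on the N tax arrays, against 6.37 and 6.12 on the N arrays (2.50, SE 0.33, adjusted p = 0.00158). GABARAPL1 208868_s_at measured 7.86 and 7.60 on the N tax arrays, against 5.34 and 5.38 on the N arrays (2.37, SE 0.31, adjusted p = 0.0015). MAP1LC3B 208786_s_at measured 13.42 and 13.22 on the N tax arrays, against 11.38 and 11.77 on the N arrays (1.74, SE 0.24, adjusted p = 0.00167). MAP1LC3B 208785_s_at rose by 1.41 (SE 0.17, adjusted p = 0.00106). The arrays of N tax and N did not overlap on any of the 7 probe sets called for these 3 genes. These 7 were picked by the call, and the share of all probe sets without overlap was not counted. In total 9 of the 17 members were higher and 0 lower in N tax than in N, beside 9.49% higher and 13.8% lower among all probe sets, with a median of 1.41 over the 17, against −0.01 over all. RefSeq also holds copies close to these genes (GABARAPL3, MAP1LC3B2 and SQSTM1P1), and the share of signal from them was not tested.

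The same 7 probe sets were called in hypoxia. SQSTM1 213112_s_at measured 10.59 and 10.29 on the H tax arrays, against 8.08 and 7.58 on the H arrays (2.61, SE 0.21, adjusted p = 0.000121). GABARAPL1 208868_s_at measured 7.75 and 7.71 on the H tax arrays, against 5.52 and 5.08 on the H arrays (2.43, SE 0.31, adjusted p = 0.000881). MAP1LC3B 208785_s_at measured 12.71 and 12.74 on the H tax arrays, against 11.22 and 10.90 on the H arrays (1.66, SE 0.17, adjusted p = 0.000332). SQSTM1 244804_at was uneven in H tax, at 7.72 and 8.91, against 6.64 and 6.56 on the H arrays (1.72, SE 0.32, adjusted p = 0.00484). Without H tax replicate 2, that difference was 1.13, and H tax against N tax was called, at −1.31 (adjusted p = 0.0183). Over the members 7 of 17 were higher and 1, BNIP3L 221478_at, was lower in H tax than in H, beside 13% higher and 17% lower among all probe sets. The paclitaxel and epirubicin comparisons share their control arrays at each oxygen level.

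On the 7 probe sets called with paclitaxel, the epirubicin differences ran from 0.03 to 0.79 in normoxia and from −0.41 to 0.75 in hypoxia. SQSTM1 239004_at, which was not among them, measured 5.01 and 4.93 on the H epi arrays, against 4.10 and 4.07 on the H arrays (0.88, SE 0.11, adjusted p = 0.000215), a difference of 1.42 with each array centred on its median and of 1.51 after quantile normalization. H tax against H gave −0.09 on it (adjusted p = 0.617). SQSTM1 213112_s_at measured 8.67 and 8.52 on the N epi arrays, against 7.63 and 7.97 on the N arrays (0.79, adjusted p = 0.012). MAP1LC3B 208785_s_at and 208786_s_at were higher in N epi than in N by 0.68 (adjusted p = 0.0105) and 0.74 (adjusted p = 0.0281), and in H epi than in H 208785_s_at was higher by 0.62 (adjusted p = 0.012) and 208786_s_at differed by 0.34 (adjusted p = 0.239). SQSTM1 201471_s_at and 244804_at and both GABARAPL1 probe sets were not called at either oxygen level, with differences of −0.41 to 0.41. Without N replicate 1 or N epi replicate 2, MAP1LC3B 208786_s_at had an adjusted p of 0.167 or 0.153 and MAP1LC3B 208785_s_at one of 0.0601 or 0.0548, and SQSTM1 213112_s_at had one of 0.0851 without N replicate 1 and of 0.0602 without N epi replicate 1. In H epi against H, SQSTM1 213112_s_at (0.75, adjusted p = 0.0121) and MAP1LC3B 208785_s_at lost their calls without H epi replicate 1 (adjusted p = 0.057 and 0.0641) or H replicate 2 (0.088 and 0.0842). GABARAPL1 208868_s_at was called in N epi against N without N epi replicate 1 (0.75, adjusted p = 0.0205). With each array centred on its median, SQSTM1 201471_s_at was also called, at 0.46 in N epi against N (adjusted p = 0.0253) and 0.56 in H epi against H (adjusted p = 0.00752). Centring also moved the called differences of SQSTM1 213112_s_at to 1.20 in N epi against N and 1.28 in H epi against H, those of MAP1LC3B 208785_s_at to 1.09 and 1.16, and that of MAP1LC3B 208786_s_at in N epi against N to 1.15. It brought calls in H epi against H for GABARAPL1 208868_s_at (0.94), MAP1LC3B 208786_s_at (0.88) and FUNDC1 235346_at (0.60), and in N epi against N for SQSTM1 239004_at (0.52).

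**Figure D4:**
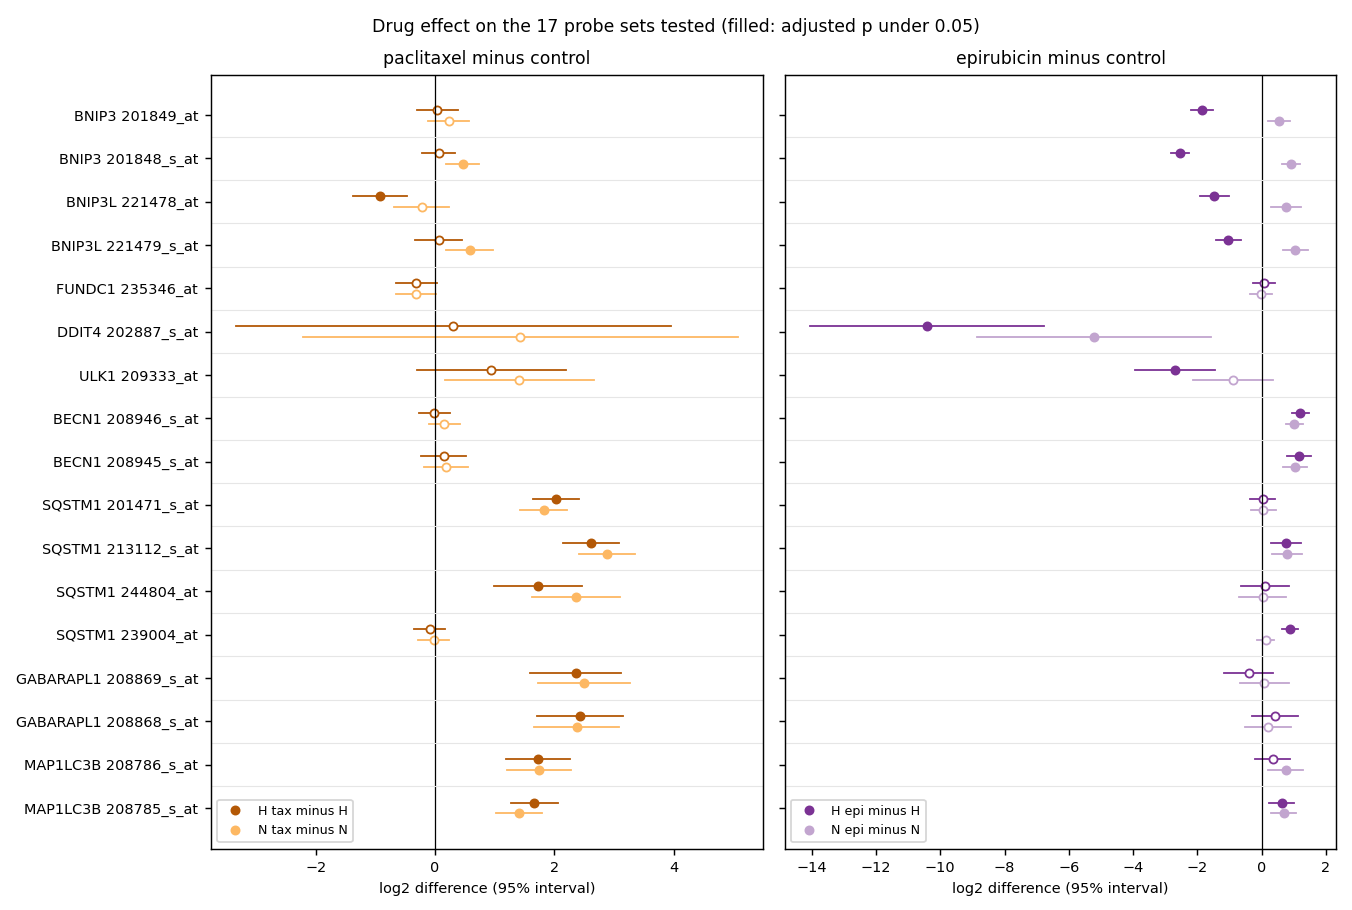
Log2 difference between drug and control for each of the 17 tested probe sets, for paclitaxel (left) and epirubicin (right), in hypoxia (dark) and normoxia (light); bars are 95% intervals and filled points have an adjusted p under 0.05. SQSTM1, GABARAPL1 and MAP1LC3B stand right of 0 with paclitaxel on 7 of 8 probe sets, and DDIT4 stands far left with epirubicin.

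BECN1 rose with epirubicin at both oxygen levels and was not called in any other comparison. BECN1 208946_s_at measured 10.86 and 10.83 on the N epi arrays, against 9.84 and 9.81 on the N arrays (1.02, SE 0.11, adjusted p = 0.000278). It measured 11.10 and 11.08 on the H epi arrays, against 9.95 and 9.84 on the H arrays (1.20, SE 0.11, adjusted p = 5.59e-05). The other probe set, 208945_s_at, gave 1.04 (adjusted p = 0.00121) in normoxia and 1.17 (adjusted p = 0.000349) in hypoxia. The epirubicin arrays lay above the control arrays on both probe sets, and separation of this kind over all probe sets was not counted. Members called in N epi against N were 9 of 17 higher and 1 lower, beside the 24.7% and 27.8% of all probe sets, and in H epi against H 5 higher and 6 lower, beside 30.9% and 32.5%.

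DDIT4 spanned the widest range of the 9 genes. Its probe set 202887_s_at measured 3.80 and 3.30 on the H epi arrays, 3.86 and 10.28 on the N epi arrays, 14.34 and 14.20 on the H tax arrays, 13.57 and 13.87 on the N tax arrays, 14.09 and 13.84 on the H arrays and 12.19 and 12.40 on the N arrays. Both H epi arrays and 1 of the N epi arrays were near the presence threshold, while the other N epi array lay between them and the N arrays. The difference between H epi and H was −10.42 on the log2 scale (SE 1.59, adjusted p = 0.000575), and that between N epi and N was −5.22 (adjusted p = 0.0236). Without N epi replicate 1 the difference from N was −2.01, and without N epi replicate 2 it was −8.43. The call was lost without N replicate 1 (adjusted p = 0.0822) or N replicate 2 (adjusted p = 0.0931), and without a presence filter (0.11). H epi against N epi was not called with all arrays (−3.52, adjusted p = 0.319) and was called without N epi replicate 1 (−6.73, adjusted p = 1.36e-05). The hypoxia effect with epirubicin against that in control cells differed by −5.19 (adjusted p = 0.239) with all arrays, by −8.40 (6.09e-05) without N epi replicate 1 and by −1.98 (0.0242) without N epi replicate 2.

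The gap between the N epi replicates also set the error of the other DDIT4 comparisons, since the fit shares 1 spread over the conditions. Both H arrays lay above both N arrays, by 1.68 on average, but with an SE of 1.59 the adjusted p was 0.631. Leaving out N epi replicate 2 gave the same 1.68 with an SE of 0.198 and an adjusted p of 0.00475, and leaving out N epi replicate 1 gave 0.00433. Fitting the H and N arrays alone gave an adjusted p of 0.0341. The same held for N tax against N, where the difference of 1.43 had an adjusted p of 0.592 with all arrays, 0.00293 without N epi replicate 2 and 0.00269 without N epi replicate 1. Between H tax and N tax the difference was 0.55 (SE 1.59, adjusted p = 0.99), with adjusted p-values of 0.276 and 0.272 without N epi replicate 2 and replicate 1.

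ULK1 209333_at varied in a similar way at lower signals. It measured 3.61 and 4.28 on the H epi arrays, 4.19 and 6.08 on the N epi arrays, 7.55 and 7.61 on the H tax arrays, 7.78 and 7.11 on the N tax arrays, 6.84 and 6.43 on the H arrays and 6.23 and 5.84 on the N arrays. The N epi replicates again differed more than those of any other condition. The difference between H epi and H was −2.69 (SE 0.54, adjusted p = 0.00256). N tax lay above N by 1.41, which missed the threshold with all arrays (adjusted p = 0.1) and passed it without N epi replicate 2 (0.0145) or replicate 1 (0.0135). N epi against N gave −0.90 (adjusted p = 0.195), and −1.85 without N epi replicate 2. That replicate, at 6.08, lay between the N arrays at 6.23 and 5.84, so the lower value rested on N epi replicate 1 alone. Without N epi replicate 1, H epi against N epi was called at −2.13 (adjusted p = 0.00788), and without either N epi array H tax against H was called at 0.94 (0.0469 and 0.0494).

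Across the 6 condition means, BNIP3 201848_s_at followed 201849_at with a Pearson r of 1.00, and the BNIP3L probe sets with 0.90 (221478_at) and 0.96 (221479_s_at). The other 13 member probe sets had r between −0.37 and 0.43. These 6 means come from 12 arrays and are given as a description. Among 6909 probe sets with a span of at least 1 log2 unit, the genes most like BNIP3 201849_at were FAM13A-AS1 (0.99), PAM (0.99), COXFA4L3 (0.99), PLOD1 (0.98) and LOC154761 (0.98). FAM13A-AS1 averaged 4.17 in H and 4.25 in H tax, but 2.47 to 2.76 elsewhere, under the presence threshold of 3.14. It was thus tested only through conditions where BNIP3 was high, which favours a high r. LOC154761 averaged 8.02 in H and 7.07 in H tax, but 3.09 in N and 2.93 in N tax, also under the threshold. PAM, a copper enzyme that amidates peptides, averaged 11.89 in H epi, 11.79 in N epi, 12.77 in H tax, 11.45 in N tax, 12.84 in H and 11.49 in N. PLOD1, a lysyl hydroxylase of collagen, averaged 9.63 in H epi, 9.41 in N epi, 10.32 in H tax, 9.36 in N tax, 10.38 in H and 9.02 in N.

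Outside the 9 genes, 86 further autophagy genes were tested, each through the brightest of its probe sets on average. In H against N, 3 were higher and 1 lower, beside 4.26% higher and 5.75% lower among 11197 genes. They were PRKAA2, a catalytic subunit of AMPK (1.04, adjusted p = 0.0457), WDR45B, a phagophore protein (0.61, adjusted p = 0.0102), RRAGD, a Rag GTPase of the mTORC1 pathway (0.53, adjusted p = 0.0294), and RUBCN, an inhibitor of the beclin 1 complex (−0.64, adjusted p = 0.0149). Each of the 4 calls was lost on leaving out N replicate 1 or N replicate 2. In H tax against N tax only USP30, a deubiquitinase that opposes parkin, was called (−1.28, adjusted p = 0.0398), 1 of the 86, beside 0.982% higher and 0.268% lower among all genes, and it is named after its value was seen. In H epi against N epi KEAP1 (−1.39, adjusted p = 0.0464), which binds SQSTM1, and RUBCN (−0.79, adjusted p = 0.028) were called, 2 of the 86, beside 0.214% higher and 1.49% lower among all genes. The calls of USP30, KEAP1 and RUBCN were each lost in at least 12 of 21 alternative settings.

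With paclitaxel in normoxia, 19 of the 86 were higher and 5 lower, beside 8.94% higher and 15% lower among all genes. The other autophagy genes named for either drug were chosen after their values were seen. CALCOCO2 (0.83), TOLLIP (0.68), TAX1BP1 (0.66), NBR1 (0.57) and OPTN (0.55) are cargo receptors that rose beside SQSTM1. Of the 9 genes of that list, which also holds KEAP1, 6 were higher and 0 lower. In H tax against H, 5 of 9 were higher and 0 lower, beside 13.3% higher and 18.2% lower among all genes. The lipidation protease ATG4B rose by 1.01 (adjusted p = 0.000491) and WDR45, a phagophore protein, by 1.25 (adjusted p = 0.00142). The stress-induced transcription factors ATF4 (1.45, adjusted p = 0.00774) and DDIT3 (3.83, adjusted p = 0.0227) and the mTORC1 inhibitor SESN2 (3.29, adjusted p = 0.032) rose too. These genes do not stand for their lists. In N tax against N, 2 of 10 lipidation genes were higher and 1 lower, and 1 of 7 phagophore genes was higher and 0 lower. Of 18 mTORC1 control genes 2 were higher and 1 lower, and of 8 transcription factors 3 were higher and 0 lower. Without N replicate 2, the calls of ATF4, DDIT3, SESN2, TOLLIP, NBR1 and OPTN were lost, while those of CALCOCO2, TAX1BP1, ATG4B and WDR45 held on leaving out any single array.

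With epirubicin in normoxia, 21 of the 86 were higher and 22 lower, beside 24.2% higher and 30.8% lower among all genes. In the list of the beclin 1 complex, which also holds the inhibitor RUBCN, 7 of 9 genes were lower and 1, BECN1 itself, was higher. The log2 differences were −3.71 for VMP1, a protein of autophagosome formation (adjusted p = 5.69e-05), −2.25 for ATG14, a subunit of the complex (adjusted p = 0.0243), and −2.24 for UVRAG, which replaces ATG14 in its endosomal form (adjusted p = 0.00623). ATG14 lost its call without N epi replicate 1, N replicate 1 or N replicate 2. In H epi against H the count was again 7 lower and 1 higher, beside 29.5% higher and 36.2% lower among all genes. FOXO3, a transcription factor of autophagy genes, gave −7.08 in H epi against H (adjusted p = 0.000275) and −3.65 in N epi against N (adjusted p = 0.0116). Its second call was lost without N replicate 1 or N replicate 2.

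**Figure D5:**
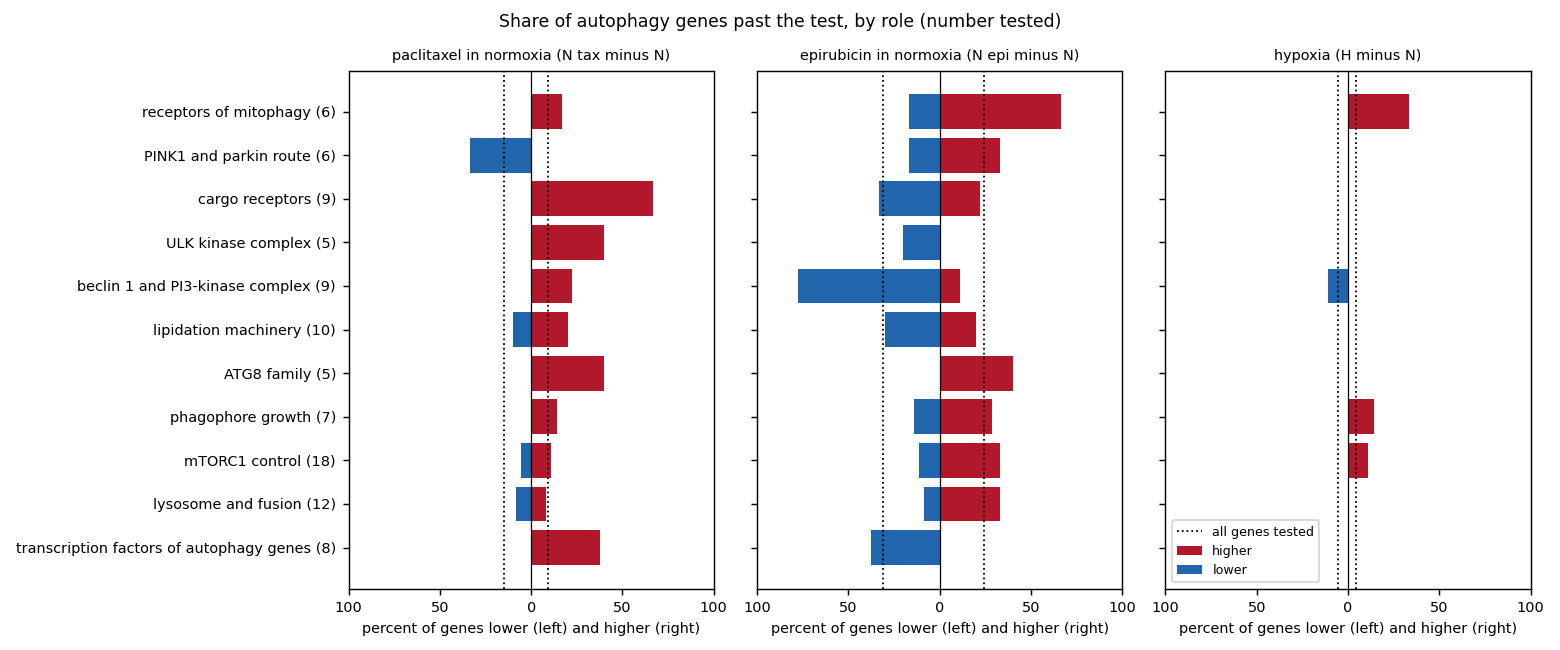
Percent of tested genes of 11 autophagy lists that were higher (red, right) or lower (blue, left) with paclitaxel in normoxia, with epirubicin in normoxia and with hypoxia in control cells, each against N, with the number tested in brackets and dotted lines at the percent over all 11197 genes. The cargo receptor list, which also holds KEAP1, reaches 6 of 9 higher with paclitaxel. The beclin 1 complex list, which also holds the inhibitor RUBCN, reaches 7 of 9 lower with epirubicin.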

How the data were processed

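Each sample was 1 expression array of MDA-MB-231 RNA (platform HG-U133 Plus 2.0), and the deposited log2 values are those the authors computed with GC-RMA. The methods name AffyProbeMiner chip definitions, while the table carries standard Affymetrix probe set names. The number of arrays limits the precision. Of 18 arrays, 12 were compared. The remaining array of each condition carried 1 drug in its title and another in its source name, so these 6 entered only as alternatives. No further normalization was applied, and 62 control probe sets were set aside.

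The platform annotation gave 1 gene symbol to 41091 probe sets, several to 1801 and none to 11721. A single limma 3.58.1 model (R 4.3.3, data.table version 1.17.8) held the 6 conditions, with 6 residual and 2.28 prior degrees of freedom. Two-sided p-values were adjusted by Benjamini-Hochberg over 24151 probe sets. The members and lists were chosen with earlier results of these data known. Named genes were all member probe sets, up to 2 genes per autophagy list with the smallest adjusted p in H against N, those past the test in H epi against N epi or in the paclitaxel difference, and the 5 genes most like BNIP3. Of 99 autophagy genes, 97 were matched and 95 tested. The fit was tested on simulated data.

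Alternatives were the 6 doubtful arrays placed by title, or by source name, leave-one-out over arrays, a replicate block, no or a doubled presence threshold, quantile normalization, median centring, a trended and robust variance, fits of a comparison's own conditions and, for lists, all probe sets. Promoter windows came from RefSeq (GRCh38.p14). Neither a background correction nor a scan batch could be varied from these values.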

Additional observations from a re-analysis of the deposited data

Results flagged for a closer look

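Hypoxia effects were set against each other by a test of the difference itself. In 8 results the effect of hypoxia differed between drug settings, and these were flagged. For epirubicin against control 5 of 17 probe sets were called, beside 3.96% of all probe sets. For paclitaxel against epirubicin 3 of 17 were called, beside 0.82%, and for paclitaxel against control 0 of 17, beside 0.12%. Epirubicin against control gave −3.45 on BNIP3 201848_s_at (adjusted p = 8.37e-05), −2.39 on BNIP3 201849_at (adjusted p = 0.00148), −2.23 on BNIP3L 221478_at (adjusted p = 0.00782) and −2.08 on BNIP3L 221479_s_at (adjusted p = 0.005). It gave 0.77 on SQSTM1 239004_at (adjusted p = 0.0388), whose signals lay between 3.92 and 5.01. Paclitaxel against epirubicin gave 3.05 on BNIP3 201848_s_at (adjusted p = 0.000541), 2.20 on BNIP3 201849_at (adjusted p = 0.00395) and 1.56 on BNIP3L 221479_s_at (adjusted p = 0.0331). The study picked BNIP3 for the H tax against N tax part of this contrast, so its values here are not independent evidence. Calls of SQSTM1 239004_at and of BNIP3L 221479_s_at in this contrast were lost on leaving out several single arrays and with median centring.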

How the results depend on the processing

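The largest dependence was on the labels of the 6 unassigned arrays. Added by source name, they left 0 calls among all 24271 probe sets tested in each comparison. The members therefore also had 0 calls in the 9 comparisons that had any. This placement turned the sign of 10 called values: SQSTM1 213112_s_at (−0.53 in N epi against N and −0.39 in H epi against H), MAP1LC3B 208785_s_at (−0.083 and −0.15), MAP1LC3B 208786_s_at (−0.18 in N epi against N), NBR1 (−0.016), RRAGD (0.025), RUBCN (−0.27) and SESN2 (−0.22) in N tax against N, and ATG4B (−0.19) in H epi against H. Added by title, they gave 5 member calls in place of 3 for paclitaxel against epirubicin, beside 3.56% of all probe sets in place of 0.82%. No call of a member was lost. The cause was not tested. Fits of a comparison's own conditions gave 0 member calls in H epi against N epi, 0 in H tax against N tax and 1 for paclitaxel against epirubicin. Over all probe sets they gave 0 of 22425, 3 of 23120 and 15 of 23859. Leaving out 1 array gave 0 to 3 member calls in H epi against N epi, 5 to 10 in N epi against N and 2 to 7 in paclitaxel against epirubicin. The share of all probe sets called moved with these counts. In the first and last comparison both were highest without N epi replicate 1. In N epi against N the fewest member calls came without N replicate 1, where the share was also below that with all arrays. These ranges therefore do not show a change particular to the members. Deviations of same-numbered arrays from their condition means had correlations of −0.18 to 0.30 (median 0.03), with 3 of 15 pairs over 0.1. With 2 arrays per condition, these values cannot settle whether replicate numbers pair the arrays. The replicate block changed 2 of 170 member results, BNIP3L 221478_at in paclitaxel against epirubicin (1.53, adjusted p = 0.033) and SQSTM1 239004_at in epirubicin against control (0.77, adjusted p = 0.0603), and moved no count of member calls by over 1.5 times. The stricter threshold changed none of the 170, quantile normalization 4 and median centring 10. With 2 arrays per condition, the number of arrays limits the precision, and DDIT4, ULK1 and SQSTM1 239004_at had epirubicin signals near the threshold of 3.14.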

Other observations

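The 6 arrays without a settled condition are given one by one, by the letter for oxygen that both labels share and by the drug in the title and in the source name. On these arrays BNIP3 201849_at measured 12.65 (hypoxia, epirubicin by title and paclitaxel by source name), 12.57 (normoxia, epirubicin by title and paclitaxel by source name), 14.65 (hypoxia, paclitaxel by title and control by source name), 12.47 (normoxia, paclitaxel by title and control by source name), 14.62 (hypoxia, control by title and epirubicin by source name) and 11.93 (normoxia, control by title and epirubicin by source name). In that order of arrays, DDIT4 202887_s_at measured 3.86, 3.84, 14.17, 13.69, 13.97 and 12.22. SQSTM1 213112_s_at measured 8.56, 8.43, 10.54, 11.06, 7.88 and 7.89. ULK1 209333_at measured 4.28, 4.39, 7.66, 7.63, 6.48 and 6.53.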
